A study of Mus musculus with 6 samples.

Results

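Serpins are a family of proteins that mostly inhibit serine proteases: the target cleaves an exposed loop of the serpin, the serpin changes shape, and the protease is trapped in a covalent complex. Some members have lost this activity and act as chaperones or signalling proteins. In the heart they are made by cardiomyocytes, fibroblasts, vessel cells and leukocytes, and several are known from acute-phase and scar-forming responses.

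The serpins described here are Serpina3n, Serpine2, Serpinb1a, Serpinb6a, Serpinf1, Serping1 and Serpinh1, taken as every probe set that the platform annotation assigns to 1 of these 7 symbols alone. The rule found 9 of the 38195 probe sets tested, for 6 of the 7 genes. Serpine2 (protease nexin 1, an inhibitor of thrombin and plasminogen activators) was matched to 0 probe sets and was not analysed here. The genes were picked with reference to a contrast between knockout and wild type whose values on these 6 arrays were already known, that is, they were chosen from the same signals, so their differences are given as descriptions, with a standard error (SE) and no p-value.

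The values come from hearts of 3 Tmbim1 KO mice and 3 Flox wild type mice, all on the C57BL/6 strain background, 8 weeks old and examined 2 weeks after banding of the aorta (the labels spell it binding), a constriction that makes the left ventricle pump against a higher pressure. Each heart was measured on 1 Affymetrix array. The Flox label points to floxed control animals. The labels do not give the promoter or cell type of any Cre, nor say whether the groups were littermates, so other genetic differences between the groups cannot be told apart from the loss of Tmbim1. Hearts without banding were not analysed here, and every value is therefore a difference between genotypes under load. All levels are log2 signals per probe set, and differences are knockout minus wild type on that scale, where 1 unit is a doubling of signal.

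Tmbim1 itself stood at 8.58, 8.38 and 8.33 in the wild type hearts and at 7.53, 7.49 and 7.56 in the knockout hearts. It fell by 0.91 (SE 0.10, limma adjusted p = 0.00579), with all 3 knockout hearts below all 3 wild type hearts, and where its probe set lies relative to the deleted part is not known. Without knockout replicate 2 its adjusted p was 0.0512. Across all probe sets, 161 of 38195 passed an adjusted p of 0.05, 91 higher and 70 lower, and 38 to 86 passed with any single array left out. Cardiomyocyte markers fit the label of heart, with Tnnt2 between 13.24 and 13.32 on every array. All 10 of them had negative differences (median -0.13, Ryr2 at -0.41), and 0 passed by limma. In 8 of the 10 the groups did not overlap, where 15.2% of all probe sets had groups that did not overlap in either direction. The mean level of the 10 markers was 12.98 to 13.07 in wild type and 12.83 to 12.90 in knockout hearts. Knockout replicate 1 carried atrial genes at a mean of 11.42 over 5 markers, against 5.42 to 5.83 on the other arrays. Wild type replicate 3 lay farthest out on the first principal component, at -36.97 against -9.66 to 23.41 for the others. Serpin values without each of these arrays are given where they differ most.

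Of the 9 serpin probe sets, 7 had a positive and 2 a negative difference, with a median of 0.28, where the median over all probe sets was -0.0022. Serpina3n was the 1 probe set among those that passed the threshold, where 0.422% of all probe sets passed and 0.238% passed with the knockout higher. In 5 of the 9, from the 3 genes Serpina3n, Serpinb1a and Serpinf1, every knockout heart stood above every wild type heart, where 15.2% of all probe sets had groups that did not overlap, 6.74% with the knockout above. These shares are printed only as a background, since the genes were proposed from the same contrast. The gap between the groups was 1.14 for Serpina3n, and only 0.01 to 0.07 in the separated probe sets of Serpinb1a and Serpinf1.

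**Figure D1:**
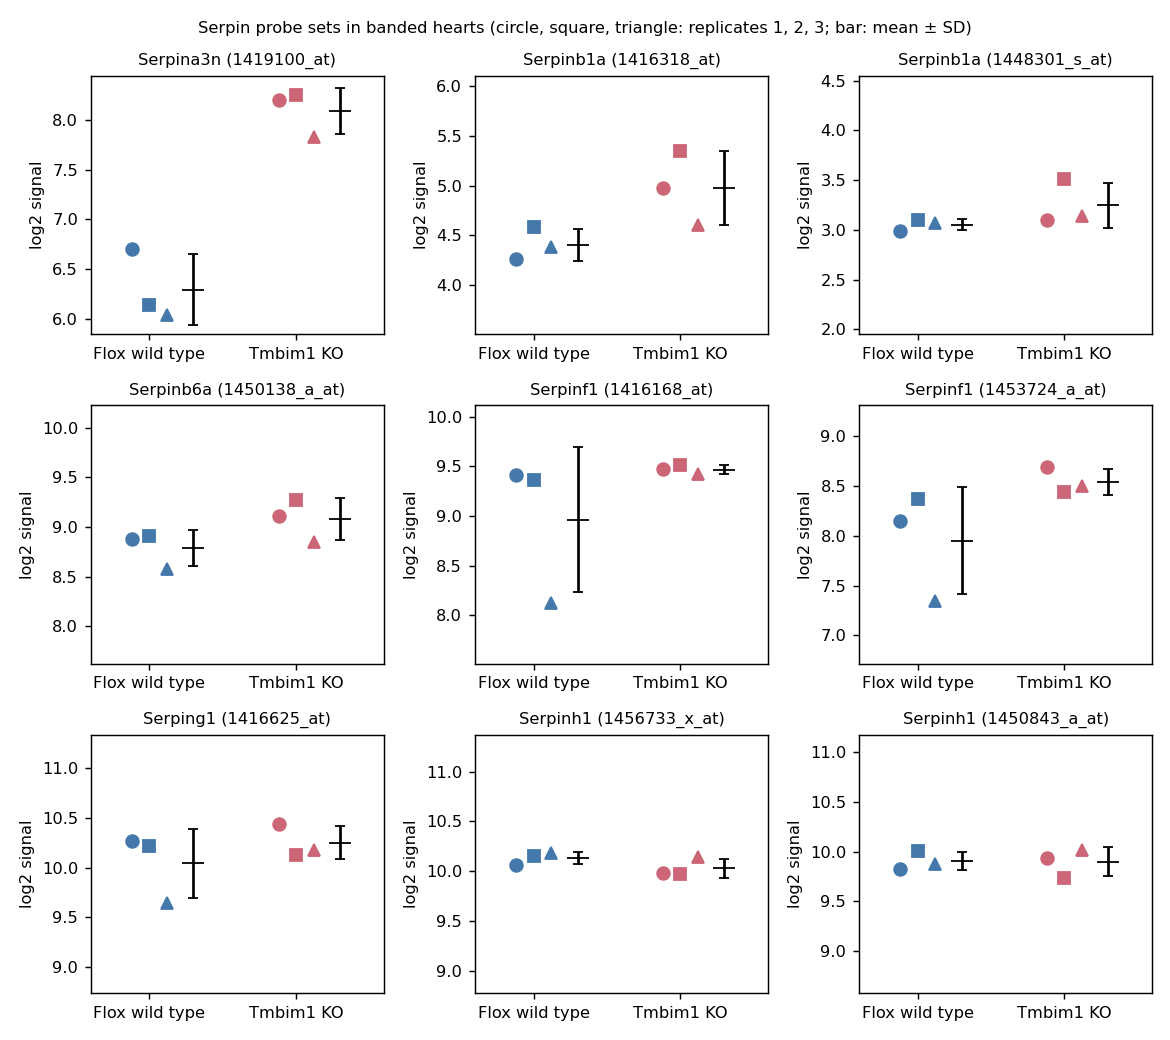
Log2 signal (vertical axis, 2.6 units tall in every panel) of the 9 serpin probe sets in 3 Flox wild type and 3 Tmbim1 KO hearts; circles, squares and triangles are replicates 1, 2 and 3, and the bars are the mean ± SD of each group. Serpina3n has a gap of 1.14 between the groups, and in both Serpinf1 panels wild type replicate 3 (triangle) lies far below the other hearts.

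Serpina3n encodes a secreted acute-phase inhibitor, the mouse relative of human alpha-1-antichymotrypsin, whose known targets include granule proteases of leukocytes. Its signal was 6.70, 6.14 and 6.04 in the wild type hearts and 8.20, 8.25 and 7.83 in the knockout hearts. The lowest knockout heart stood 1.14 above the highest wild type heart, while the wild type hearts spanned 0.66. The means were 6.29 ± 0.36 (SD, n = 3) and 8.09 ± 0.23 (SD, n = 3), a difference of 1.80 (SE 0.18) or 3.49-fold. Leaving out single arrays moved the difference between 1.68 (wild type replicate 3 omitted) and 2.01 (wild type replicate 1 omitted). Without the atrial-rich knockout replicate 1 it was 1.75. Serpina3n stayed among the probe sets past the threshold in 13 of 14 alternatives. It left them only when knockout replicate 1 and wild type replicate 3 were both omitted, where its difference was 1.62 (SE 0.21). These fits reuse the arrays from which the gene was chosen, so the count is a description and no support for the difference.

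The 250 bases before the RefSeq start of Serpina3n are shown because the gene had the largest difference of the family. They lie on the plus strand of GRCm38.p6 at chr12:104406458-104406707, and a match to any motif searched would be in capitals.
Serpina3n: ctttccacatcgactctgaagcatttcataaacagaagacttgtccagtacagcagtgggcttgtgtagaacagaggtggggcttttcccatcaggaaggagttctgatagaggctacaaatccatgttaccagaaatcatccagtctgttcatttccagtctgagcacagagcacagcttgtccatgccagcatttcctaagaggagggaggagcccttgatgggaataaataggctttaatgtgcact
The motifs, searched on both strands, were a STAT site (TTCNNNGAA), a C/EBP site (TTGCNNAA), a heat shock element (GAA, TTC and GAA, with 2 bases between neighbouring blocks), a TATA box (TATAAA) and an SP1 box (GGGCGG). They occurred in 7.02%, 9.56%, 0.466%, 12.4% and 32.7% of the 32851 RefSeq promoter windows of this length. This window held 0 matches to any of them, which says only that these letters are not in these bases.

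The genes next to Serpina3n on chromosome 12 gave no call. Of the 10 nearest named and measured genes, 5 on each side, 5 are serpins themselves, among them the paralogues Serpina3a at -0.10 (SE 0.11) and Serpina3i at 0.07 (SE 0.11). The 5 serpins lay between -0.10 and 0.12 and all 10 genes between -0.10 and 0.15, with 0 called by limma and 0 with an unadjusted p under 0.05. The 5 serpins were dim, with mean signals of 2.11 to 3.05 where array medians were 4.24 to 4.28, so small changes in them were not detectable here. Around all 6 measured serpins, 0 of 59 distinct neighbours passed by limma and 6 had an unadjusted p under 0.05, where 11.5% of the main probe sets (the brightest of each gene) had one.

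The profiles nearest to that of Serpina3n over the 6 hearts, by the root mean square difference after centring each gene on its own mean, were those of Ptgs2, Apold1, Slc22a4, Depp1 and Myh7. Ptgs2, which encodes the inducible prostaglandin synthase, had a root mean square difference of 0.162 log2 units. Its values were 3.64, 3.41 and 3.20 in wild type and 5.46, 5.09 and 4.99 in knockout hearts. Apold1, an early response gene of endothelial cells, was at 0.210 on that measure, and Slc22a4, Depp1 and Myh7 at 0.284 to 0.291. All 11164 main probe sets brighter than the median were compared, and since both groups enter the profile, the likeness includes the difference between genotypes.

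Acute-phase and interleukin 6 family genes were listed as the setting in which Serpina3n is best known. Of 34 measured genes 5 rose and 0 fell by limma (0.549% of main probe sets passed), and the median difference was 0.14 against -0.0020 for all main probe sets. Socs3, the feedback inhibitor of STAT3 signalling, stood at 5.47, 4.89 and 5.20 in wild type and 6.25, 6.27 and 6.64 in knockout hearts. It rose by 1.20 (SE 0.16, limma adjusted p = 0.0153). Cebpd, a transcription factor of the acute-phase response, stood at 6.79, 6.27 and 5.52 against 7.85, 7.54 and 7.93, and rose by 1.58 (SE 0.26, limma adjusted p = 0.0405). In neither gene did the groups overlap. The other 3 were the cytokine genes Il6 at 2.68, Tnf at 1.10 and Il1b at 1.09. None of the listed genes for acute-phase proteins passed. They ran from -0.11 for Orm1 to 0.99 for Lcn2 (limma adjusted p = 0.354), with Hp at 0.56, Cp at 0.47, Saa3 at 0.14 and Saa1 at -0.06. Of the receptor and kinase genes, Osmr was at 0.58, Il6st at -0.13, Jak1 at -0.30 and Lifr at -0.39, and none passed. Heat shock genes, listed as a sign of stress or tissue handling, were also high in the knockout hearts: 2 of 10 rose, 9 were positive, the median was 0.30, and their mean level was 8.99 to 9.11 in wild type and 9.55 to 9.82 in knockout hearts. Their part in the acute-phase values and in that of Serpina3n was not tested. The acute-phase count was 3 without knockout replicate 2 and 3 without knockout replicate 3. Cebpd lost its call without wild type replicate 2 or any single knockout replicate (adjusted p 0.107 to 0.158), under the robust prior (0.0919) and as the mean of its probe sets, where it was at 0.92 (0.0718). Socs3 lost its call without wild type replicate 3, knockout replicate 2 or knockout replicate 3 (0.0553 to 0.0794).

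**Figure D2:**
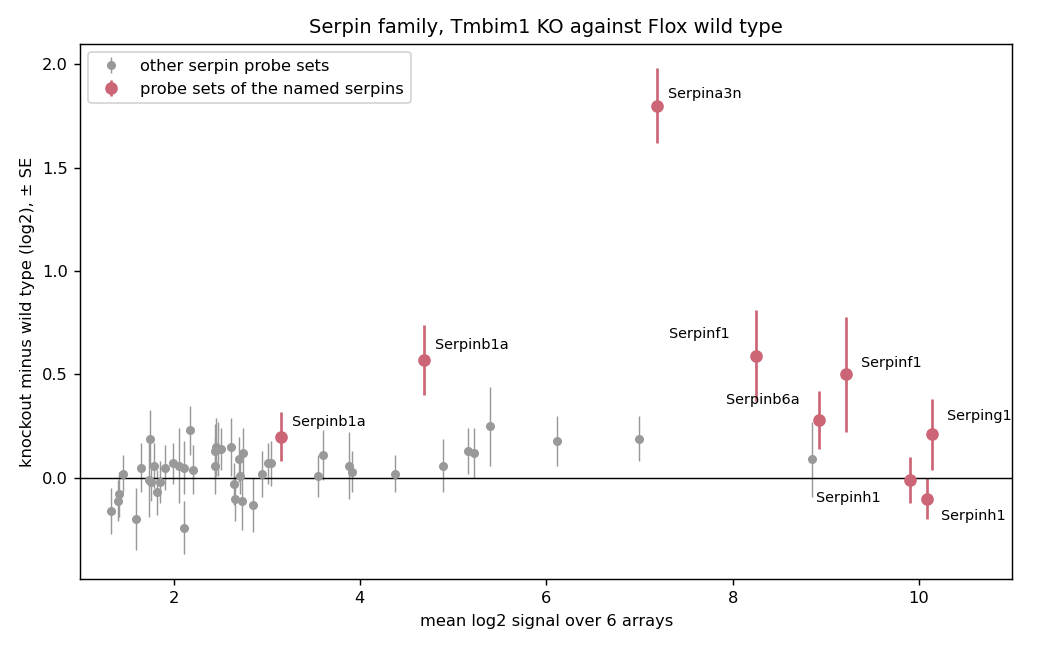
Knockout minus wild type (log2, ± SE) against the mean log2 signal over 6 arrays for the 9 probe sets of the named serpins (red) and the 47 of other serpin genes (grey). Serpina3n stands alone at 1.80, while the other serpin probe sets lie between -0.24 and 0.25.

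Serpinb1a and Serpinb6a belong to the B clade of serpins, which stay inside the cell and guard it against its own granule proteases. Serpinb1a is an inhibitor of neutrophil elastase, cathepsin G and proteinase 3. Its main probe set (1416318_at) read 4.26, 4.58 and 4.38 in wild type and 4.98, 5.35 and 4.60 in knockout hearts. The groups were separated by 0.03, a gap far smaller than the spread of the knockout hearts (SD 0.37). The difference was 0.57 (SE 0.17) or 1.49-fold, and 0.38 without knockout replicate 2, the heart with the highest value. The dimmer probe set (1448301_s_at, whose suffix marks probes shared with related transcripts) read 2.99, 3.10 and 3.07 against 3.10, 3.51 and 3.14. Its difference of 0.20 (SE 0.12) was 0.07 without knockout replicate 2 and 0.27 without knockout replicate 1. Both probe sets were highest in knockout replicate 2. The paralogue Serpinb1b, dim at a mean signal of 1.82, was at -0.07 (SE 0.11). The profiles nearest to Serpinb1a were those of the chemokine receptor gene Ccr1 (root mean square difference 0.105), Ankrd37 (0.136), Pcgf5 (0.136), S100a4 (0.138) and Armh4 (0.142).

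Serpinb6a, which inhibits cathepsin G and related proteases, read 8.88, 8.91 and 8.58 in wild type and 9.11, 9.27 and 8.85 in knockout hearts. The lowest knockout heart lay within the wild type range, so the groups overlapped. The difference was 0.28 (SE 0.14), 0.18 without wild type replicate 3 and 0.19 without knockout replicate 2. Its paralogue Serpinb6b was at 0.09 (SE 0.18) and Serpinb6e at 0.12 (SE 0.12), and whether the probe sets of such close relatives share transcripts was not tested. The upstream of the 2 RefSeq promoter windows of Serpinb6a, on the minus strand of GRCm38.p6 at chr13:34002795-34003044, is shown because it was the 1 window among the 6 of these genes with a match to the STAT motif.
Serpinb6a: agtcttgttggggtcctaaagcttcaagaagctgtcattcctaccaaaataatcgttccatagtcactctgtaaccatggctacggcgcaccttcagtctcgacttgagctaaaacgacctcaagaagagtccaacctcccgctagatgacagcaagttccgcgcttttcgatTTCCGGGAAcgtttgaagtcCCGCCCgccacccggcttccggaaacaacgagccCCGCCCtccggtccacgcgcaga
Capitals mark the STAT match TTCCGGGAA, which begins 77 bases before the start, and 2 SP1 boxes, read on the opposite strand, which begin 57 and 23 bases before it. The matches do not overlap. A match of letters is not evidence of binding, and 7.02% of windows hold this motif.

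Genes of granule proteases, a group that includes targets of these serpins, were mostly dim. Of 10 measured genes of neutrophils, mast cells and cytotoxic lymphocytes, 8 had a mean signal below the median of the arrays, 0 passed by limma and 1 had an unadjusted p under 0.05. The median difference was -0.05. Cma1, the mast cell chymase gene, read 3.91, 4.20 and 3.85 in wild type and 3.53, 3.08 and 3.68 in knockout hearts, which put it at -0.56 (SE 0.16, limma adjusted p = 0.218). Of the targets named above for Serpinb1a, Elane (elastase, mean signal 4.36) was at -0.02 and Prtn3 (proteinase 3, mean signal 4.51) at -0.01. Ctsg, which encodes cathepsin G, was at -0.08 with a mean signal of 2.43. The granzyme genes Gzmk and Gzma were both at -0.20. Neutrophil markers beside them were mixed: 0 of 6 passed, S100a9 was at 1.32 and S100a8 at 0.95, Mpo, Elane, Csf3r and Cxcr2 lay between -0.03 and -0.02, and the mean level over the 6 was 4.02 to 4.17 in wild type and 4.30 to 4.57 in knockout hearts. Their part in the values of Serpinb1a was not tested.

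Serpinf1 encodes pigment epithelium-derived factor, a secreted serpin without protease inhibitor activity that is known to restrain blood vessel growth. Its main probe set (1416168_at) read 9.41, 9.36 and 8.12 in wild type and 9.47, 9.51 and 9.42 in knockout hearts. The other (1453724_a_at) read 8.15, 8.37 and 7.34 against 8.69, 8.44 and 8.50. In both, wild type replicate 3 was the lowest heart. The other 2 wild type hearts lay close to the knockouts in the main probe set. They were less close in the other, at 8.15 and 8.37 against 8.44 to 8.69. The differences were 0.50 (SE 0.28) and 0.59 (SE 0.22), and the wild type SD of the first, 0.73, was larger than its difference. Without wild type replicate 3 the differences became 0.08 (SE 0.10) and 0.29 (SE 0.12), and without knockout replicate 1 they were 0.50 and 0.52. The separation of the groups, 0.01 in the main probe set and 0.07 in the other, is smaller than the spread among the knockout hearts (SD 0.05 and 0.13).

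Serping1 encodes the C1 inhibitor, which blocks the first proteases of complement and the contact system. It read 10.27, 10.22 and 9.64 in wild type and 10.44, 10.13 and 10.18 in knockout hearts. The groups overlapped, and wild type replicate 3 was again the lowest heart. The difference was 0.21 (SE 0.17) with all arrays and 0.01 without that array, and was 0.11 without knockout replicate 1. Leaving out wild type replicate 1 or 2 gave 0.32 and 0.30.

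Wild type replicate 3 was the lowest of the 6 hearts in 5 of the 9 serpin probe sets, from 4 of the 6 genes, and in 21.2% of the main probe sets of all genes. Fibroblast markers were low in the same heart. Their mean level over 12 genes was 8.69 there, against 9.53 and 9.58 in the other wild type hearts and 9.56 to 9.71 in the knockouts, and 10 of the 12 were lowest on that array. Of the 12, 0 passed by limma and 5 had an unadjusted p under 0.05, where 11.5% of all main probe sets had one. The median difference of the 12 was 0.35, and 0.12 without that array. Among the defining markers, Pdgfra read 7.72 there and 8.10 to 8.47 elsewhere, while Tcf21, at 6.48, was not the lowest of the 6. Macrophage and monocyte markers had a mean level of 7.04 there, 7.24 and 7.46 in the other wild type hearts and 7.35 to 7.50 in the knockouts, with 0 of 11 passing. Fewer cells of a type and less RNA per cell cannot be told apart in whole tissue, and the part of either cell type in the serpin values was not tested. For Serpina3n, the difference without this heart was nearly as large as with it (1.68 against 1.80).

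**Figure D3:**
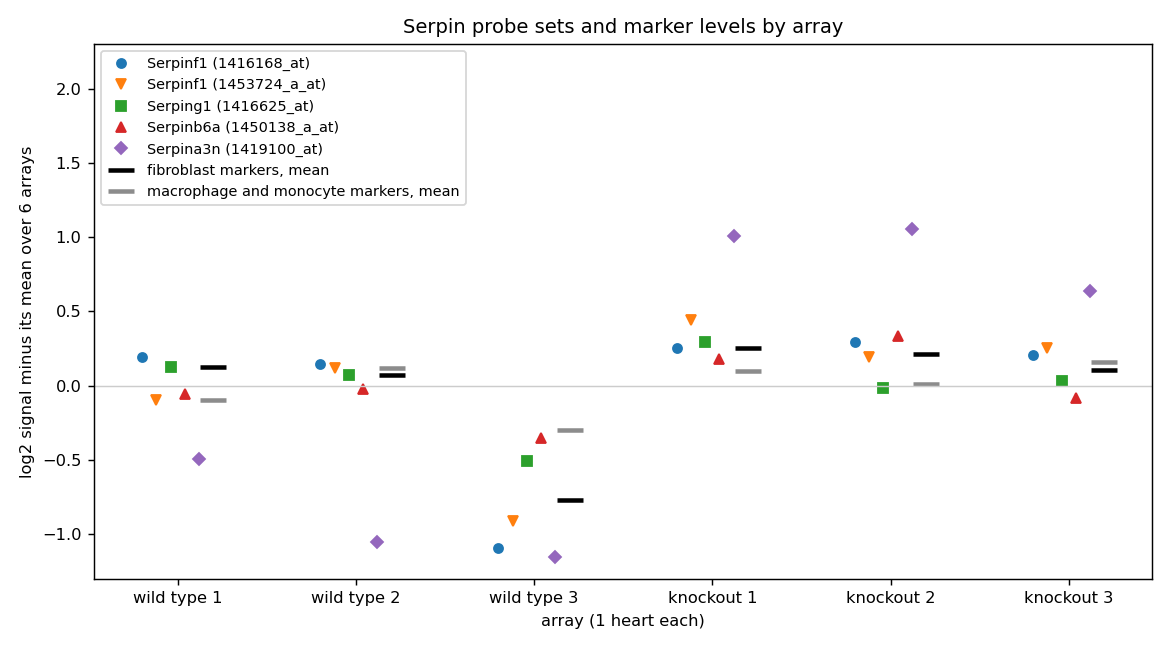
Log2 signal minus its mean over the 6 arrays (vertical axis) for 5 serpin probe sets (points) and for the mean of fibroblast and of macrophage and monocyte markers (bars), by array. Serpinf1 and Serping1 drop with the fibroblast markers in wild type replicate 3, whereas Serpina3n is low in all 3 wild type hearts.

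The profiles nearest to Serpinf1 showed the same single low heart. They were those of Emp1 (root mean square difference 0.068), Bcl2 (0.088), Svep1 (0.096), Meox1 (0.101) and Itih5 (0.114). Their differences between genotypes ranged from 0.34 to 0.59, and none of the 5 passed by limma (adjusted p 0.492 to 0.793).

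Partners of these 2 secreted serpins were listed by role. Of 14 measured complement and contact system genes, 0 passed by limma and 2 had an unadjusted p under 0.05, with a median of 0.11. Of the protease genes, C1ra was at 0.04 (SE 0.18), C1s1 at 0.11 (SE 0.16) and Masp1 at -0.01. Masp2 at -0.12, Klkb1 at 0.10, F12 at 0.10 and F11 at -0.08 were dim, with mean signals of 2.72 to 3.49. The chains of C1q, the recognition part of the complex that Serping1 controls, stood at 0.42 for C1qa (SE 0.12, limma adjusted p = 0.218), 0.45 for C1qb and 0.34 for C1qc, and C2 at 0.20. All 3 chains, which are also in the macrophage marker list, were lowest on wild type replicate 3, and without it stood at 0.31, 0.26 and 0.18. Of 7 genes for receptors and partners of Serpinf1, 0 passed by limma and 3 had an unadjusted p under 0.05. The share of all main probe sets with such a p was 11.5%. Pnpla2, the triglyceride lipase that binds it, was at -0.40 (SE 0.12, limma adjusted p = 0.234). Lrp6 was at 0.38, Plxdc1 at -0.44 and Atp5b at -0.13.

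Serpinh1 encodes HSP47, a heat-inducible chaperone of the endoplasmic reticulum that binds procollagen while it folds and inhibits no protease. Its main probe set (1456733_x_at, whose suffix marks probes that may match other transcripts) read 10.06, 10.15 and 10.18 in wild type and 9.98, 9.97 and 10.14 in knockout hearts. The second (1450843_a_at) read 9.83, 10.01 and 9.88 against 9.94, 9.74 and 10.02. The groups overlapped in both, and all 6 hearts lay within 0.21 and 0.28 of each other. The differences were -0.10 (SE 0.10) and -0.01 (SE 0.11), and leaving out single arrays gave -0.15 to -0.07 and -0.07 to 0.07.

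The promoter window of Serpinh1 is shown because the gene is heat-inducible and genes of the heat shock and handling list differed in these hearts. It lies on the minus strand of GRCm38.p6 at chr7:99353240-99353489.
Serpinh1: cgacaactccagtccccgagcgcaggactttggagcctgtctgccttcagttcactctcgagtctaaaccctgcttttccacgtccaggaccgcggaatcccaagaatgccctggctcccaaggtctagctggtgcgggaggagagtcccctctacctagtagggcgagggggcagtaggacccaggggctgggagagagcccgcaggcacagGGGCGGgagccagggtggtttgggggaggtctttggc
Capitals mark an SP1 box that begins 37 bases before the start, and 0 matches to the heat shock element were found in this window. The 2 of 10 genes of that list that rose by limma were Hspa1b, by 2.33 (SE 0.26, limma adjusted p = 0.00579) and Hspa1a, by 2.20 (SE 0.37, limma adjusted p = 0.0429), which have nearly identical transcripts. Hspa1a lost its call without wild type replicate 1, 2 or 3 or knockout replicate 1 (adjusted p 0.104 to 0.148) and under the robust prior (0.214).

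Of the collagen chain genes, the clients of Serpinh1, 11 were listed, 9 with a positive and 2 with a negative difference. With 20 genes of collagen processing and the endoplasmic reticulum they made up a list of 31. Of these 31 measured collagen and collagen-processing genes, 1 rose and 0 fell by limma and 10 had an unadjusted p under 0.05. Over all main probe sets 0.549% passed and 11.5% had such an unadjusted p. The median of the list was 0.13. Without wild type replicate 3, the heart with low fibroblast markers, the median was 0.06, and the mean level of the list was 7.57 on that array, 7.80 and 7.90 in the other wild type hearts and 7.90 to 7.94 in the knockouts. The part of fibroblast content in these values was not tested. Col3a1, the type III collagen chain, read 11.19, 11.12 and 11.04 in wild type and 11.75, 11.60 and 11.66 in knockout hearts, and rose by 0.55 (SE 0.10, limma adjusted p = 0.0481). That call ended with any single array left out (adjusted p 0.0839 to 0.212). Col1a1 was at 0.40, the prolyl hydroxylase gene P4ha1 at 0.40 and the chaperone gene Hspa5 at -0.42, none of which passed, and P4ha1 was at 0.25 without wild type replicate 3. No test of the difference between Serpinh1 and the collagens was made.

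The rest of the family gave no call. Besides the 7, the annotation named 34 serpin genes with 47 probe sets, and 28 of the 34 had a mean signal below the median of the arrays. At the main probe sets limma called 0 of 34, and 0 of 34 reached an unadjusted p under 0.05, with differences from -0.24 to 0.19 and a median of 0.05. Over all 47 probe sets 0 passed and 0 had an unadjusted p under 0.05 (lowest adjusted p = 0.572). Serpinb9, which inhibits granzyme B, read 6.99, 6.94 and 6.76 in wild type and 6.95, 7.25 and 7.05 in knockout hearts. Its difference was 0.19 (SE 0.11, limma adjusted p = 0.630). Serpini1, the nervous system serpin neuroserpin, was at 0.18 (SE 0.12), Serpina6, corticosteroid-binding globulin, at -0.24 (SE 0.13), Serpinb11 at 0.14 and Serpinc1, antithrombin, at 0.09. On RMA values background compresses the differences of dim probe sets, so small changes in most of these genes were not detectable here.

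Serpine2, the member without a value, lies on chromosome 1, as Tmbim1 does, with 57 measured genes between them in the RefSeq gene order. Of its 10 nearest measured genes 2 rose by limma and 3 had an unadjusted p under 0.05. Over all main probe sets 0.549% passed and 11.5% had such an unadjusted p. Wdfy1, with 1 measured gene between it and Serpine2, read 4.71, 4.53 and 4.52 in wild type and 7.08, 7.34 and 7.27 in knockout hearts. It rose by 2.65 (SE 0.11, limma adjusted p = 1.3e-05), and by 1.80 as the mean of its probe sets. Kcne4, a potassium channel subunit gene, rose by 0.68 (SE 0.11, limma adjusted p = 0.0377), a call that ended with any single array left out (adjusted p 0.0541 to 0.166). Irs1, the insulin receptor substrate gene on the other side, was at -0.56 (SE 0.11, limma adjusted p = 0.0906), and the other 7 lay between -0.13 and 0.16.

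Among protease inhibitors outside the family, 1 of 23 genes rose and 0 fell by limma, 4 had an unadjusted p under 0.05 and the median was 0.08. Over all main probe sets 0.549% passed and 11.5% had such an unadjusted p. Timp1, an inhibitor of matrix metalloproteinases, read 6.90, 6.75 and 6.09 in wild type and 8.14, 8.96 and 7.78 in knockout hearts, and rose by 1.72 (SE 0.29, limma adjusted p = 0.0415). It kept that call with single arrays left out only without knockout replicate 3 (adjusted p = 0.0477), and otherwise stood at 0.0756 to 0.129. Tfpi2, a Kunitz-type inhibitor, was at 0.53 (SE 0.12, limma adjusted p = 0.112), Itih4 at 0.49 and Timp3 at 0.44.

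The plasminogen and thrombin list held targets of serpins of the E clade together with receptors and cofactors. It had 18 measured genes, of which 0 rose, 1 fell and 6 had an unadjusted p under 0.05, with a median of 0.06. Over all main probe sets 0.549% passed and 11.5% had such an unadjusted p. Among the target proteases, the activator genes Plau and Plat were both at 0.08, the plasminogen gene Plg at -0.14 and the thrombin gene F2 at -0.13. None of them passed, and all but Plat were dim, with mean signals of 2.58 to 3.03. F3, which encodes tissue factor, the starter of coagulation, is not one of these proteases. It read 5.26, 5.30 and 5.28 in wild type and 4.69, 4.51 and 4.71 in knockout hearts. It fell by 0.64 (SE 0.10, limma adjusted p = 0.0302), and the call ended with any single array left out (adjusted p 0.0724 to 0.141). The plasmin receptor subunits Anxa2 and S100a10 were at 0.60 (limma adjusted p = 0.0797) and 0.48, Anxa2 at 0.28 as the mean of its probe sets, and Vtn, the vitronectin gene, at -0.62. None of these 3 passed.

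**Figure D4:**
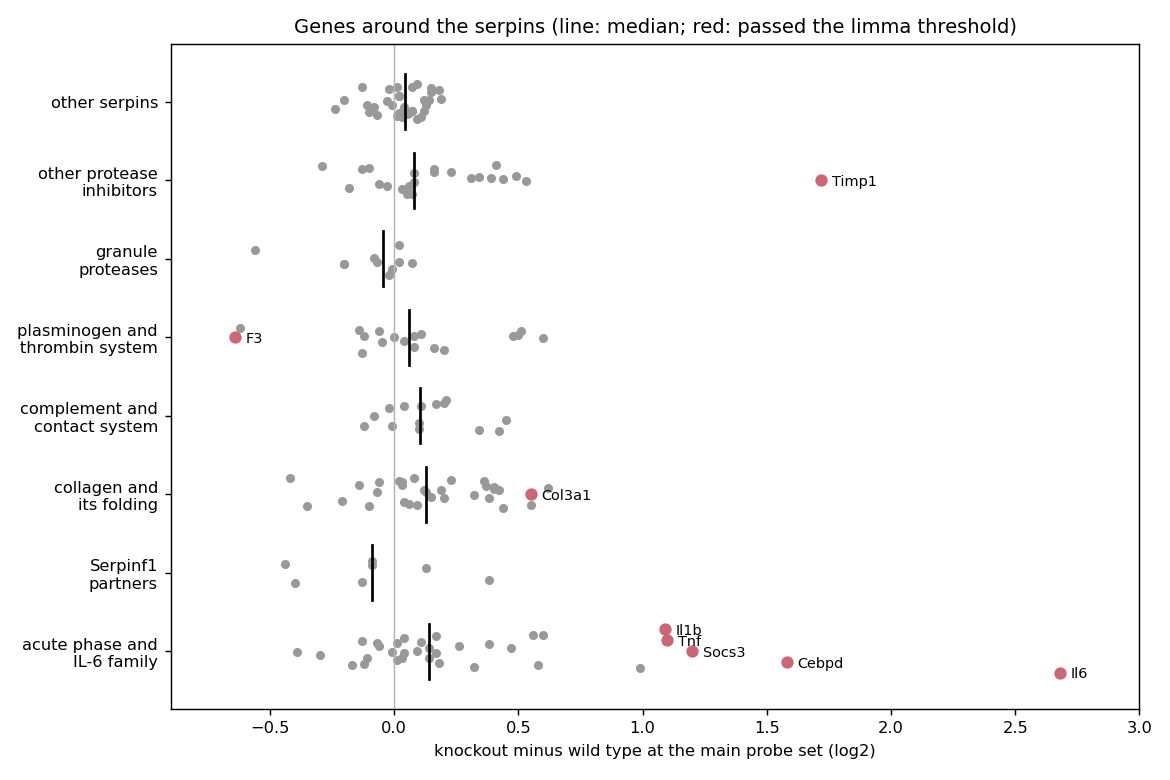
Knockout minus wild type (log2, horizontal axis) at the main probe set of each gene in 8 lists; the black line is the list's median and red points passed the limma threshold. The other serpins lie between -0.24 and 0.19, and 5 genes of the acute-phase and interleukin 6 list passed.

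**Figure D5:**
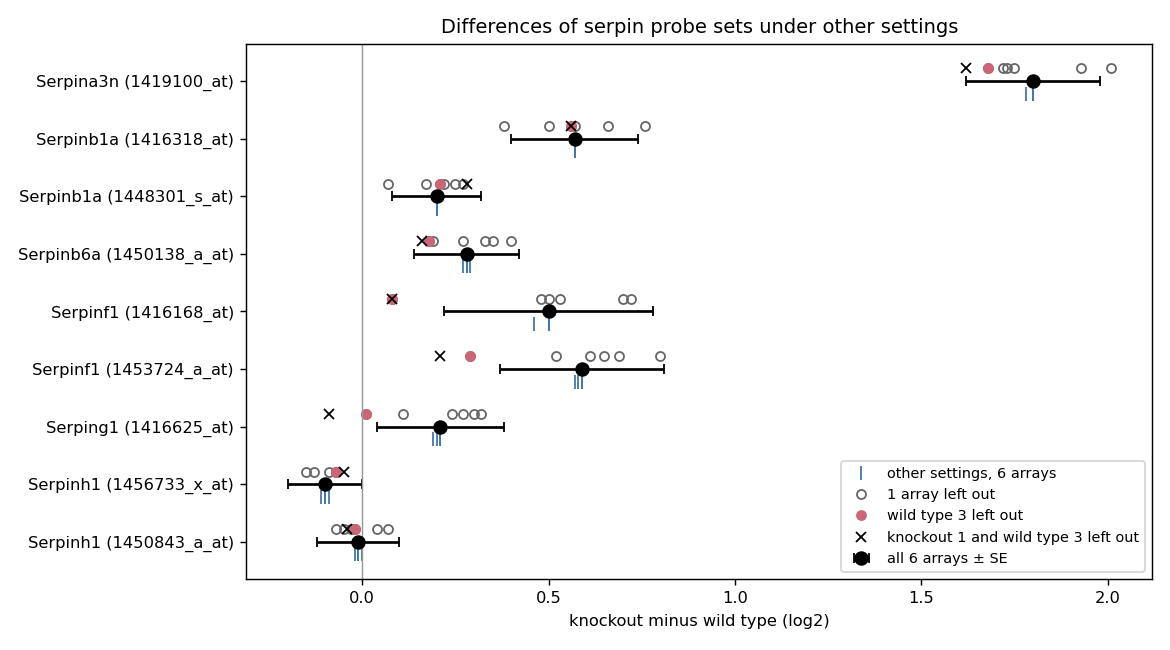
Knockout minus wild type (log2, horizontal axis) of the 9 serpin probe sets with all 6 arrays (black, ± SE), under other settings (blue ticks), with 1 array left out (open circles; wild type replicate 3 in red) and with 2 left out (cross). Serpina3n stays between 1.62 and 2.01, while the main probe set of Serpinf1 ranges from 0.08 to 0.72.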

How the data were processed

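Total RNA (400 ng per heart) was labelled with biotin and hybridised to 1 Affymetrix array per mouse, per the labels' protocols. The deposited log2 signals per probe set were made by the authors with RMA, and limma is also named, per the submitters' processing notes; neither version was given in the sources used here. The method equalises the arrays' distributions, so a shift of all genes cannot be seen. Array medians were 4.24 to 4.28. Depth does not apply to arrays; their number, 3 per group, limits precision. The labels call the samples biological.

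Of 38208 rows, 13 control probe sets were left out. The annotation gave 34325 of 38195 probe sets 1 symbol, 62 several and 3808 none. Each of 18029 genes was represented in lists by its brightest (main) probe set. Groups were compared by limma (3.58.1, R 4.3.3; lmFit and eBayes, two-sided, Benjamini-Hochberg over all probe sets, threshold 0.05). The script was tested on simulated data with 6 arrays. There limma recovered 14 of 76 probe sets changed by 0.5 log2 units, 59 of 65 changed by 1 and 59 of 59 changed by 2. Most changes of 0.5 were missed there, so a gene without a call may still differ by that much. Members, lists and tests were chosen with earlier results of these data known. Genes were named by rule: all members, list genes that passed and up to 4 per list by smallest p. The rule also named Serpinb9 and Serpinc1, the neighbours of Serpine2, defining markers and nearest profiles. Paralogues, acute-phase protein genes and the genes of plasminogen, its activators and thrombin were added after their values were seen. So were complement, contact system and granule protease genes, and further neutrophil and cardiomyocyte markers. Promoters are RefSeq sequences (GRCm38.p6), found for 5 of the 7 genes. Alternatives were a replicate block, trended and robust priors, array weights, a filter at the 40th percentile of signal, centring of array medians, quantile normalization applied again, gene means, and arrays left out.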

Additional observations from a re-analysis of the deposited data

How the results depend on the processing

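The differences of the 9 serpin probe sets moved by less than 1 SD of the replicates under every alternative run but 1: without knockout replicate 1 and wild type replicate 3 together, Serping1 was at -0.09. The filter on dim probe sets removed the dimmer Serpinb1a probe set and gave no value for it. With single arrays left out, ranges were 1.68 to 2.01 for Serpina3n, 0.38 to 0.76 and 0.07 to 0.27 for Serpinb1a, 0.18 to 0.40 for Serpinb6a, 0.08 to 0.72 and 0.29 to 0.80 for Serpinf1 and 0.01 to 0.32 for Serping1. The number of serpin probe sets past the threshold was 1 in each of these fits and 0 without both arrays, a description only, since the serpins were chosen from the same arrays. Without both, 29 probe sets passed in all, Tmbim1 was at -0.96 (adjusted p = 0.0607), the lists of other protease inhibitors, plasminogen and thrombin genes and collagen genes had 0 calls each, and the acute-phase list had 3. The total of 161 ranged from 38 to 86 with single arrays left out, and Tmbim1 from -0.96 to -0.83 (adjusted p = 0.0512 without knockout replicate 2). The same fits gave 0 to 1 calls for other protease inhibitors, 0 for the plasminogen and thrombin list, 0 for the collagen list and 3 to 6 for the acute-phase list. The robust prior left 0 calls among other protease inhibitors, and averaging a gene's probe sets left 0 there and 0 among collagen genes. The same averaging moved Anxa2 to 0.28, Hspa5 to -0.27, Pnpla2 to -0.25, Plxdc1 to -0.21, Serpini1 to 0.02 and Cebpd to 0.92. It moved Wdfy1 from 2.65 to 1.80 and Socs3 from 1.20 to 0.94, and both kept their calls. Hspa1a lost its call under this averaging (adjusted p = 0.0577) and with array weights (adjusted p = 0.0529). Ctsg ranged from -0.14 to 0.02 with single arrays left out, changing sign without wild type replicate 3, and was at 0.01 without both arrays. The cause of these changes was not tested.

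The replicate numbers were not treated as pairs: deviations of same-numbered hearts correlated at 0.06, 0.14 and 0.02 across probe sets. With the replicate block 168 probe sets passed and Serpina3n was at 1.80 (SE 0.13), while F3 (adjusted p = 0.0544) and Col3a1 (adjusted p = 0.0685) lost their calls, leaving 0 in their lists. Hspa1a (adjusted p = 0.0612) and Kcne4 (adjusted p = 0.0586) lost theirs too. Detection calls and scans were not analysed here, so dim probe sets have no lower bound of detection.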
